A study of Mus musculus with 30 samples.

Results

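The mouse Schlafen genes were followed in clones of J774A.1, a mouse macrophage-like cell line, by RNA-seq of polyA RNA. The family was taken as 7 protein-coding genes matched by symbol, Slfn1, Slfn2, Slfn3, Slfn4, Slfn5, Slfn8 and Slfn9, out of 54146 annotated genes in the count table. The rule was this list of symbols, with no threshold on a measured value. Slfn14, a further Schlafen gene of the region, was not in the list and is given beside it. All 7 lie on chromosome 11 of mm10, in a stretch of 264 kb that runs from the start of Slfn5 to the end of Slfn3. On the plus strand lie Slfn5 at 82951349-82964840, Slfn2 at 83065112-83070678, Slfn1 at 83116849-83122670, Slfn4 at 83175186-83190216 and Slfn3 at 83191330-83215154, and on the minus strand Slfn9 at 82978390-82991830 and Slfn8 at 83002158-83020810.

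Schlafen proteins are found in mammals and are known as products of interferon-stimulated genes that act on growth and on RNA. They share an N-terminal core with an AlbA-like fold, and the best studied of them bind or cut tRNA. Mouse members fall into 3 classes by protein length: the short Slfn1 and Slfn2, the intermediate Slfn3 and Slfn4, and the long Slfn5, Slfn8 and Slfn9, which add a helicase-like domain. Interferon gamma (IFNG) signals from its receptor through JAK kinases. GAS elements and interferon-stimulated response elements (ISRE) are the DNA motifs through which interferons act, and IRF proteins bind the second.

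WT1, WT2 and WT3 were clones expanded from single wild-type J774A.1 cells. KO1 and KO2 were clones with a homozygous CRISPR deletion of B2_Mm2.Dicer1, a B2 SINE repeat in the first intron of Dicer1 on chromosome 12. Each clone was left untreated (UT) or given IFNG (100 ng/mL) over 4 h. Each of these 10 groups has 3 libraries, 30 in all. A knockout or wild-type group is thus 2 or 3 clones, the WT clones were not electroporated, and no source used here says whether the 3 libraries of a clone were separate cultures. The p-values over libraries then measure the spread between these libraries.

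Untreated libraries held 15566122 to 29587932 counts and IFNG libraries 15579730 to 37992642. All 10 macrophage markers examined, among them Adgre1 and Csf1r, were above 1 CPM (counts relative to the library total, after TMM scaling) in every library. All 5 T cell, 3 B cell and 3 epithelial markers were below 1 CPM in every library. Of the 3 endothelial markers Cdh5 was above 1 CPM in every library (1.07 to 2.18), Pecam1 reached 1.5 and Kdr stayed at or below 0.28 CPM, and of the 3 fibroblast markers Pdgfra ranged from 0.29 to 2.85 CPM while Col1a1 and Col1a2 stayed at or below 0.222 CPM. Their part in the results was not tested. Dicer1, whose first intron held the deleted element, was at 71.5 ± 1.30 CPM in untreated KO1 and 104 ± 3.65 in KO2, against 105 ± 7.21, 128 ± 2.95 and 123 ± 2.48 in WT1, WT2 and WT3 (mean ± SD, n = 3). After IFNG it was at 75.0 ± 5.18 CPM in KO1 and 99.6 ± 4.35 in KO2. The WT clones were then at 135.8 ± 4.19, 158.5 ± 1.38 and 161.3 ± 9.85 CPM, with all KO libraries below all WT libraries. The deletion removes no exon, so these levels are no direct check of the genotype. The WT clones themselves stood apart: 59.5% of the 13971 genes tested differed among the 3 untreated clones at an adjusted p under 0.05. Without WT1, the genes called between knockout and wild type went from 3689 to 6472 untreated and from 3258 to 5992 after IFNG.

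The promoters of the 4 members with the most to show are printed to place the data in sequence: Slfn5, with the largest fold change under IFNG, Slfn8 and Slfn9, neighbours that differ in their response, and Slfn2, the most abundant member per kb of exon. Each is 300 bases, from 250 before to 50 after the RefSeq start in GRCm38.p6, read on the gene's own strand. The capitals mark matches to a core of the ISRE, spelled GAAA, then any 2 bases, then GAAA, or its reverse complement TTTC, any 2 bases, TTTC. Both strands were searched for these exact letters only, so sites spelled otherwise were not marked.
Slfn5, chr11:82951852-82952151, plus strand: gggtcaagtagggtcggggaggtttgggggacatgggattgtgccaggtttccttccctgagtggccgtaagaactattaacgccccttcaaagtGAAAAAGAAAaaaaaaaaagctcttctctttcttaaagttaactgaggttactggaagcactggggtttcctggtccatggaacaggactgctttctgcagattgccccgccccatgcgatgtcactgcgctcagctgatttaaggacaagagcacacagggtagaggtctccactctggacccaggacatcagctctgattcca
Slfn8, chr11:83020761-83021060, minus strand: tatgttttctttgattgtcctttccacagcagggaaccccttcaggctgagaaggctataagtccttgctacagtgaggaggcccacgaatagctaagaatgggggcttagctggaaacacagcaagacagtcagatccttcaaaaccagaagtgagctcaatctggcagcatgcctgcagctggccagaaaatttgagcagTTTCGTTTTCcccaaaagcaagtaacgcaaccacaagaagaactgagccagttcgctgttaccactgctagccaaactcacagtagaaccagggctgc
Slfn9, chr11:82991781-82992080, minus strand: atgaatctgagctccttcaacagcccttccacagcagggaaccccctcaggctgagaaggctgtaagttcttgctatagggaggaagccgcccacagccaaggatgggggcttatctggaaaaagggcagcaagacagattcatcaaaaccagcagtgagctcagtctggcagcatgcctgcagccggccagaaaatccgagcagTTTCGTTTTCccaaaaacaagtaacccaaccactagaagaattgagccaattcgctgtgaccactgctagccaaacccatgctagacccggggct
Slfn2, chr11:83064862-83065161, plus strand: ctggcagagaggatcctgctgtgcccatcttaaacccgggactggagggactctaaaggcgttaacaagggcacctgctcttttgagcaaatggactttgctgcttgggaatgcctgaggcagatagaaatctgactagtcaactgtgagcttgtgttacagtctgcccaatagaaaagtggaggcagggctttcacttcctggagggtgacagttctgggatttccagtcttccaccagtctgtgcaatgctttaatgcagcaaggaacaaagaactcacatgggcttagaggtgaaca
The match began at base -155 from the start in Slfn5, -48 in Slfn8 and -45 in Slfn9, and the 10 matched letters were the same in Slfn8 and Slfn9. A second RefSeq start of Slfn8 puts the same match at -136. The windows of Slfn2, Slfn1, Slfn4 and Slfn3 held no such match, and none of the 7 genes' windows held TTCNNNGAA, a GAS core that reads alike on both strands. Of 32851 RefSeq promoter windows of this length, 3.44% held the ISRE letters and 8.30% the GAS letters. The letters are a description of the reference genome, which comes from C57BL/6J mice whereas J774A.1 comes from BALB/c, and say nothing of binding in these cells.

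Levels of different members were compared as CPM per kb of exon, and their order depends on that length. It was 1664 bases for Slfn2, with 1 annotated transcript, and 5965 for Slfn9, with 3. In CPM alone Slfn9 was above Slfn2 in all 5 untreated clones, with means of 86.65 to 110.9 against 47.3 to 78.3 CPM. Per kb, Slfn2 led the family in all 10 groups, with 28.4 to 47.1 CPM per kb in untreated clones and 132 to 213 CPM per kb after IFNG (range of group means). In untreated clones Slfn9 came next in all 5, at 14.5 to 18.6 CPM per kb, followed in an order that varied between clones by Slfn3, Slfn4 and Slfn8 at 2.79 to 8.43 CPM per kb. Slfn5 was at 0.0392 to 0.0818 CPM per kb and Slfn1 at 0 to 0.00607. The sum over the 7 members went from 60.0 to 86.2 CPM per kb untreated to 214 to 297 CPM per kb after IFNG. Slfn2 made up 47.4% to 58.2% of that sum untreated and 60.1% to 73.7% after IFNG, and the share of Slfn8 went from 4.06% to 9.98% up to 8.38% to 16.5%. The shares of Slfn9 (21.1% to 24.6% untreated, 10.5% to 16.3% after IFNG), Slfn3 (7.70% to 11.9%, then 2.87% to 4.66%) and Slfn4 (5.84% to 7.96%, then 3% to 4.80%) were lower after IFNG although their own levels were higher.

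**Figure D1:**
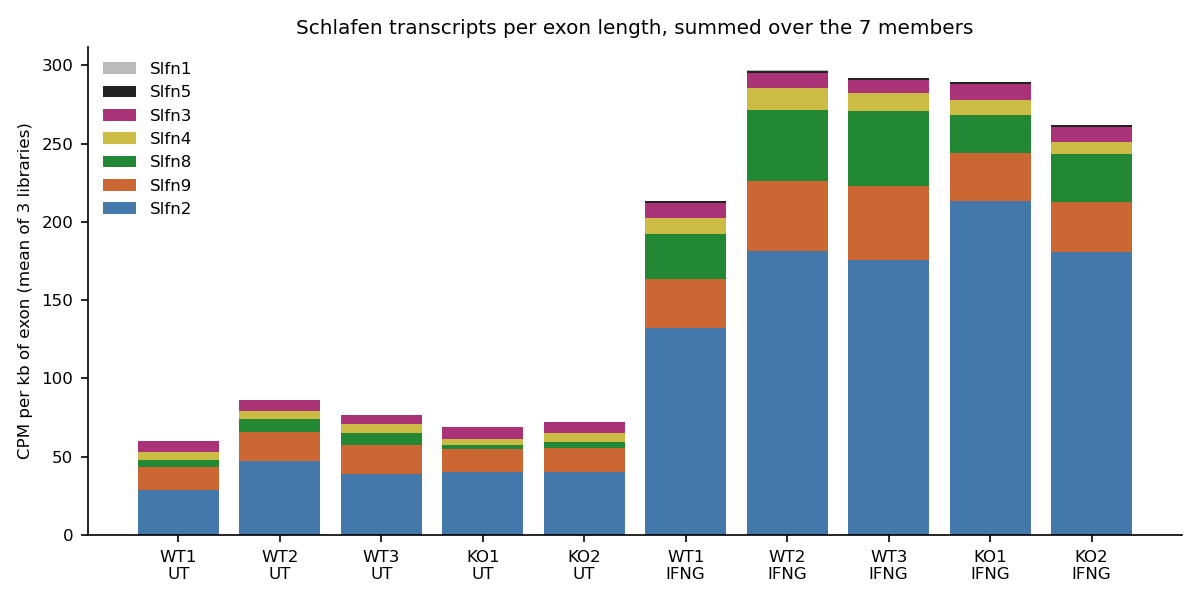
Summed level of the 7 Schlafen genes in CPM per kb of exon (y axis, mean of 3 libraries) in each of 10 groups of clone and treatment (x axis), with 1 colour per member. Sums were 60.0 to 86.2 untreated and 214 to 297 after IFNG, and Slfn2 was the largest part of every bar.

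The IFNG response was tested in each clone on its own, 3 libraries against 3, with edgeR's quasi-likelihood test, and a call is an adjusted p under 0.05 over all genes tested (Benjamini-Hochberg). Slfn5, Slfn8, Slfn2, Slfn9, Slfn4 and Slfn3 rose in all 5 clones, and in each clone every IFNG library was above every UT library. Of all genes tested, 21.2% were called in WT1, 34.5% in WT2, 36.1% in WT3, 29.4% in KO1 and 27.1% in KO2; those called higher were 11.8%, 17.4%, 18.6%, 16.2% and 13.9%. Of the 12834 genes tested in all 5 clones, 9.47% were called higher in each. Groups without overlap, IFNG above UT, were found for 18%, 20.1%, 22.5%, 18.7% and 20.2% of genes. Slfn1 was too sparse for the filter on low counts in these fits and is described apart, and Slfn5, with 3 to 16 counts in untreated libraries, passed it through its IFNG libraries, so its presence among the 6 is no support for a change. In such bulk RNA, fewer cells of a kind and less RNA per cell cannot be told apart.

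**Figure D2:**
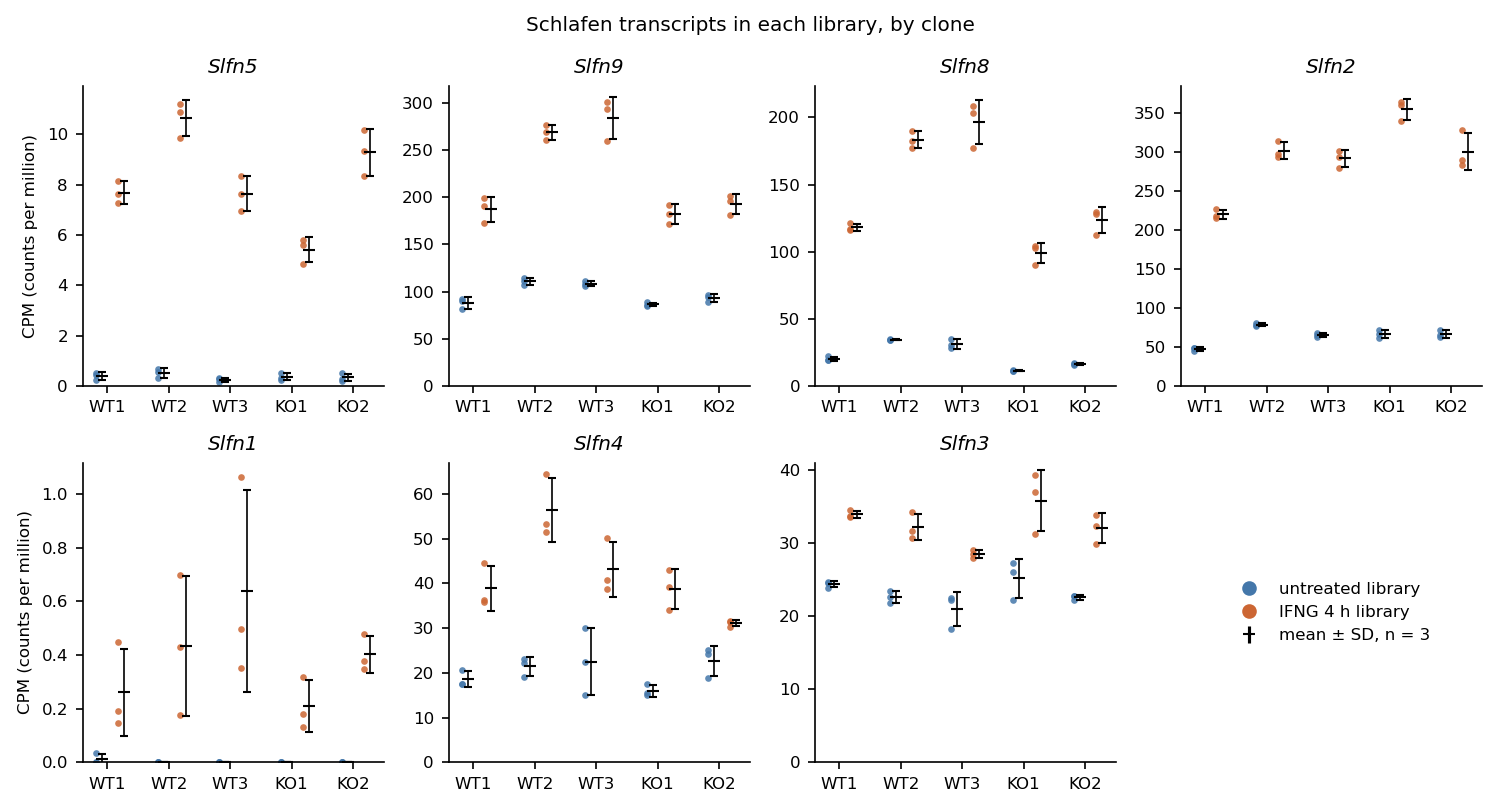
CPM (y axis, linear, 1 panel per gene) in each library of the 5 clones (x axis), untreated in blue and after IFNG for 4 h in orange, with the mean ± SD of 3 libraries in black. For each member each clone's IFNG libraries sit above its untreated ones, and Slfn8 is lowest in untreated KO1 (11.3 to 11.7 CPM) and KO2 (15.5 to 16.8 CPM).

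Among the long members, Slfn5 had the largest change. Human SLFN5 is known as a repressor of transcription. Untreated libraries held 0.227, 0.502 and 0.441 CPM in WT1, 0.312, 0.674 and 0.566 CPM in WT2 and 0.320, 0.257 and 0.167 CPM in WT3, with 0.249, 0.513 and 0.308 CPM in KO1 and 0.208, 0.293 and 0.504 CPM in KO2, from 3 to 16 counts each. After IFNG the values were 8.15, 7.25 and 7.64 CPM in WT1, 9.84, 10.9 and 11.2 CPM in WT2 and 8.36, 6.94 and 7.64 CPM in WT3, with 5.59, 5.81 and 4.84 CPM in KO1 and 8.33, 10.2 and 9.34 CPM in KO2, from 109 to 319 counts each. KO1 was the lowest clone after IFNG and its libraries overlapped none of the other 4, while untreated clones overlapped in their order from WT2 down to WT3. The log2 fold change was 4.25 ± 0.20 in WT1, 4.33 ± 0.19 in WT2, 4.87 ± 0.22 in WT3, 3.93 ± 0.22 in KO1 and 4.76 ± 0.20 in KO2 (± SE), or 15.2-fold to 29.3-fold, with adjusted p of at most 6.66e-09. Its rank by fold among all genes tested ran from 63 in WT1 to 93 in KO1. Slfn5 passed the filter on low counts through its IFNG libraries, and its folds rest on untreated levels near the floor. The rank and p-values are therefore a description and no support for a change. The antisense gene Slfn5os overlaps 559 exonic bases of Slfn5 on the other strand and had at most 1 count in any library; counting used strand.

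Slfn8, whose human relatives include the tRNA-cutting SLFN13, showed the next largest change. Untreated, it stood at 19.1, 22.1 and 19.1 CPM in WT1, 34.3, 34.9 and 34.3 CPM in WT2 and 28.1, 30.8 and 35.3 CPM in WT3. The KO clones were below all of these, with 11.3, 11.4 and 11.7 CPM in KO1 and 16.6, 16.8 and 15.5 CPM in KO2. After IFNG it reached 117, 121 and 116 CPM in WT1, 182, 190.1 and 178 CPM in WT2 and 178, 209 and 204 CPM in WT3. The KO clones reached 104, 103 and 90.3 CPM in KO1 and 112, 128 and 129.5 CPM in KO2, where KO2 overlapped WT1 and KO1 remained the lowest. The log2 fold change was 2.54 ± 0.07 in WT1, 2.42 ± 0.04 in WT2, 2.67 ± 0.07 in WT3, 3.15 ± 0.07 in KO1 and 2.92 ± 0.07 in KO2, or 5.37-fold to 8.85-fold, with adjusted p of at most 2.43e-12.

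Slfn9 lies next to Slfn8 on the same strand and responded less. Untreated values were 81.1, 90.03 and 92.5 CPM in WT1, 107, 112 and 114 CPM in WT2 and 108, 106 and 111 CPM in WT3, and 85.2, 88.7 and 86.1 CPM in KO1 and 96.8, 94.7 and 88.6 CPM in KO2. After IFNG they were 191, 199 and 173 CPM in WT1, 269.8, 276 and 260.3 CPM in WT2 and 259, 301 and 293 CPM in WT3, and 192, 182 and 171 CPM in KO1 and 181, 202 and 196 CPM in KO2. WT2 and WT3 were above the other 3 clones without overlap in both states. The log2 fold change was 1.08 ± 0.07 in WT1, 1.29 ± 0.04 in WT2, 1.40 ± 0.05 in WT3, 1.1 ± 0.05 in KO1 and 1.04 ± 0.05 in KO2, or 2.06-fold to 2.64-fold, with adjusted p of at most 3.96e-08. The 2 genes and the pseudogene Slfn10-ps share sequence: 14.6% of the 50-base stretches in Slfn8 transcripts and 11.9% of those in Slfn9 transcripts also occur in another gene's transcripts. The authors kept only uniquely aligned fragments, so some fragments of these genes may be missing from the counts. Their read pairs were longer than these stretches, so the shares do not measure how uncertain the levels are.

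Slfn10-ps, a transcribed pseudogene upstream of Slfn8, also rose in all 5 clones, by 1.79-fold in KO2 to 2.25-fold in WT3, with adjusted p of at most 7.41e-07. Its means were 24.5 to 32.5 CPM untreated and 44.7 to 70.5 CPM after IFNG. Slfn14, Slfn5os and Slfnl1 were at or near 0, with at most 3 counts in any of the 30 libraries.

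Slfn2, a short member known to hold T cells and monocytes in quiescence and to shield tRNAs from angiogenin, was the most abundant per kb. Untreated values were 44.4, 48.6 and 48.98 CPM in WT1, 76.5, 78.1 and 80.2 CPM in WT2 and 67.2, 65.8 and 62.4 CPM in WT3, and 61.5, 66.9 and 71.7 CPM in KO1 and 64.8, 62.8 and 72.1 CPM in KO2. After IFNG they were 226, 218 and 215 CPM in WT1, 294, 314 and 297 CPM in WT2 and 279.8, 302 and 294 CPM in WT3, and 339.5, 360.5 and 364 CPM in KO1 and 283, 289.8 and 328 CPM in KO2. WT1 was the lowest clone in both states without overlap, WT2 was the highest untreated, and KO1 the highest after IFNG. The log2 fold change was 2.20 ± 0.06 in WT1, 1.96 ± 0.04 in WT2, 2.17 ± 0.05 in WT3, 2.44 ± 0.06 in KO1 and 2.17 ± 0.07 in KO2, or 3.90-fold to 5.43-fold, with adjusted p of at most 2.69e-12.

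The other short member, Slfn1, known as a brake on T cell growth, was close to the detection limit. Of the 15 untreated libraries 1, of WT1, held 1 count and the other 14 held 0, and each of the 15 IFNG libraries held 3 to 19 counts. IFNG libraries held 3, 4 and 11 counts in WT1, 3, 7 and 11 in WT2, 12, 19 and 6 in WT3, 5, 6 and 3 in KO1 and 14, 15 and 7 in KO2. Against a floor of 3 counts over the untreated libraries of a clone, the summed level was 8.38-fold higher in WT2, 14.5-fold in WT3, 5.09-fold in KO1 and 11.7-fold in KO2. These values leave out the counting error of the IFNG counts and are no lower bounds. In WT1, 18 counts against 1 gave a ratio of 23.4 (95% exact binomial interval 3.69 to 973, counting error only). Without the filter on low counts edgeR called Slfn1 higher in all 5 clones, with adjusted p from 2.46e-10 in WT3 to 0.00145 in KO1. DESeq2 called it in WT2, WT3 and KO2 and gave no adjusted p in WT1 and KO1. But for 1 untreated count in WT1, Slfn1 was present in these fits through its IFNG libraries. The calls and p-values are therefore a description and no support for a change.

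Of the intermediate members, Slfn4 is known to be switched on in macrophages by Toll-like receptor ligands. Untreated values were 17.6, 17.6 and 20.7 CPM in WT1, 23.1, 19.1 and 22.3 CPM in WT2 and 22.4, 29.99 and 15.1 CPM in WT3, and 15, 17.4 and 15.4 CPM in KO1 and 25.1, 24.3 and 18.9 CPM in KO2. After IFNG they were 35.8, 36.3 and 44.6 CPM in WT1, 51.5, 64.5 and 53.3 CPM in WT2 and 38.6, 40.7 and 50.2 CPM in WT3, and 43.02, 34.01 and 39.2 CPM in KO1 and 30.3, 31.7 and 31.4 CPM in KO2. KO2 was the lowest clone after IFNG without overlap, although its untreated mean was the highest, in overlap with WT3. The log2 fold change was 1.05 ± 0.10 in WT1, 1.42 ± 0.08 in WT2, 0.92 ± 0.15 in WT3, 1.32 ± 0.09 in KO1 and 0.45 ± 0.09 in KO2, or 1.37-fold to 2.67-fold, with adjusted p of at most 0.00135.

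Slfn3, the end of the cluster, had the narrowest range of log2 fold changes among the 6, and was below the other members in all clones but KO2. Untreated values were 23.9, 24.6 and 24.6 CPM in WT1, 22.6, 23.5 and 21.8 CPM in WT2 and 18.3, 22.6 and 22.2 CPM in WT3, and 22.2, 26.1 and 27.3 CPM in KO1 and 22.2, 22.8 and 22.8 CPM in KO2. After IFNG they were 33.7, 34.5 and 33.7 CPM in WT1, 31.7, 34.2 and 30.8 CPM in WT2 and 27.96, 28.6 and 29.02 CPM in WT3, and 37, 39.3 and 31.3 CPM in KO1 and 29.9, 32.4 and 33.9 CPM in KO2. Within each clone the treatments did not overlap, while between clones most neighbours in order did. The log2 fold change was 0.47 ± 0.07 in WT1, 0.52 ± 0.06 in WT2, 0.46 ± 0.08 in WT3, 0.54 ± 0.09 in KO1 and 0.50 ± 0.07 in KO2, or 1.37-fold to 1.45-fold, with adjusted p of at most 0.000483. Transcripts of Slfn3 share 16.0% of their 50-base stretches with other genes, Slfn4 being the first of them.

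**Figure D3:**
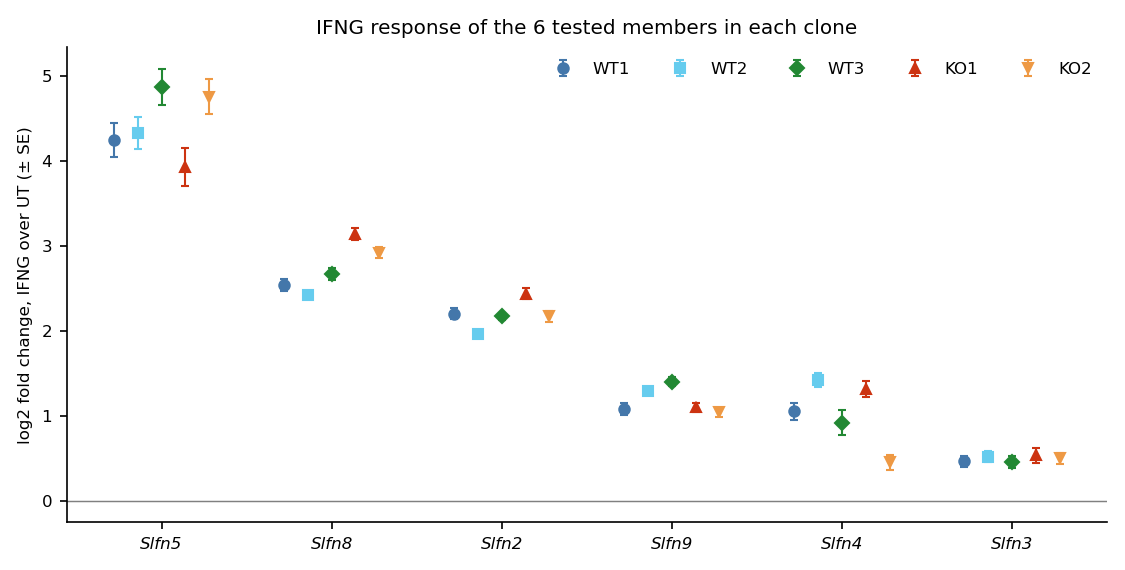
log2 fold change of IFNG over UT (y axis, ± SE from the edgeR fit of that clone) for the 6 tested members (x axis), with 1 symbol per clone. Slfn5 lies at 3.93 to 4.87, Slfn8 at 2.42 to 3.15, Slfn2 at 1.96 to 2.44, Slfn9 at 1.04 to 1.40, Slfn4 at 0.45 to 1.42 and Slfn3 at 0.46 to 0.54.

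By fold change the order was Slfn5, Slfn8 and Slfn2 in every clone. Slfn9 followed in WT1, WT3 and KO2 and Slfn4 in WT2 and KO1. Slfn3 came last in WT1, WT2, WT3 and KO1, and Slfn4 was last in KO2. Neither class nor strand sorted the values: the long members held both the largest fold change and some of the smaller ones, and Slfn8 on the minus strand lay above Slfn2 on the plus strand.

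**Figure D4:**
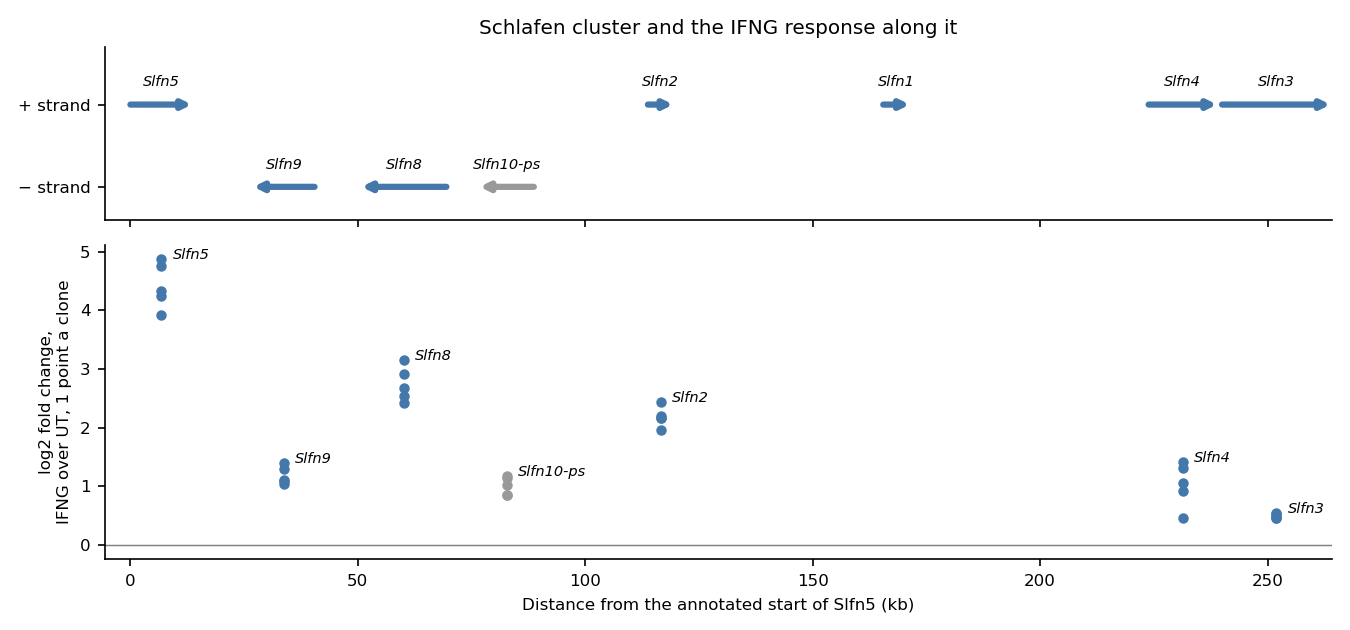
Upper panel: the 7 members (blue) and Slfn10-ps (grey) by distance from the annotated start of Slfn5 (x axis, kb), with arrows along their strand. Lower panel: log2 fold change of IFNG over UT (y axis), 1 point per clone, at each gene's middle; Slfn5 is highest at 3.93 to 4.87 and Slfn3, at the other end, lies at 0.46 to 0.54 (Slfn1 was not tested).

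Whether the response was the same in all clones was tested with a single model of the 30 libraries. The response differed among the 5 clones for Slfn8 (adjusted p = 0.000194, edgeR), Slfn2 (0.00699), Slfn9 (0.0194) and Slfn4 (0.021), and the test did not pass for Slfn5 (0.65), Slfn3 (0.996) and Slfn1 (0.91). This call was made for 3.68% of 14870 genes. Slfn5 and Slfn1 were near the floor untreated, so their tests cannot show that the response was alike in all clones. The Slfn2 call was lost without WT2 (adjusted p = 0.316) and without KO1 (0.231), and that of Slfn9 without WT3 (0.38). That of Slfn4 was lost without WT2 (0.111) and without KO2 (0.581), and that of Slfn8 held without each clone in turn. Left-out single libraries also ended the Slfn9 call (libraries a and b of WT3 UT, b and c of WT3 IFNG, adjusted p up to 0.0778) and the Slfn4 call (b of WT2 UT, a and b of KO2 UT, a of KO2 IFNG, up to 0.0893), where a to c is the order of a group's columns in the table.

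The KO clones were compared with the WT clones in each state, where the deletion, the electroporation and the clone cannot be told apart. Untreated, Slfn8 was the member called: the mean was 13.9 CPM over the 6 KO libraries and 28.7 CPM over the 9 WT libraries, a log2 fold change of -1.04 ± 0.17 (adjusted p = 0.000245, edgeR), and all KO libraries lay below all WT libraries. Such calls were made for 26.6% of 13886 genes (14.4% lower), and 5.10% of genes had all KO below all WT libraries. It was lower in each KO clone on its own, with a log2 fold change of -1.33 ± 0.21 in KO1 (adjusted p = 0.000581) and -0.81 ± 0.20 in KO2 (adjusted p = 0.0205). In KO1 25.7% of genes were called (14.6% lower, 11.1% higher) and in KO2 11.6% (6.70% lower, 4.89% higher), and both comparisons share the WT libraries. Without WT1 the log2 fold change was -1.24 (adjusted p = 4.34e-07) for both KO clones, -1.53 (2.95e-09) for KO1 and -1.01 (1.67e-07) for KO2. The KO2 call was lost without WT2 (adjusted p = 0.0736), without WT3 (0.0754) and without any 1 of the 3 KO2 libraries (0.0803 to 0.104).

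The 3 WT clones differed too in untreated Slfn8, from 20.1 CPM in WT1 to 34.5 CPM in WT2 (test among the WT clones, adjusted p = 3.56e-07). With counts summed per clone, so that a clone counts as 1 sample, Slfn8 was at -1.04 on the log2 scale with adjusted p = 0.303, and 1 of all genes tested was called. The other members untreated had log2 fold changes of -0.19 ± 0.07 for Slfn9 (adjusted p = 0.0544), -0.16 ± 0.30 for Slfn5, -0.11 ± 0.15 for Slfn4, 0.07 ± 0.12 for Slfn2 and 0.07 ± 0.07 for Slfn3, none of them called. Slfn9 was called without WT1 (-0.28, adjusted p = 2.28e-05) and without any 1 of the 3 untreated WT1 libraries (0.00722 to 0.0437). Among the WT clones Slfn2 (adjusted p = 4.38e-09), Slfn9 (2.84e-05) and Slfn3 (0.028) differed untreated as well, and Slfn4 (0.266) and Slfn5 (0.141) did not pass the test. The Slfn3 call was lost with DESeq2 (0.105), without library b or c of WT1 or a of WT3 (0.0691 to 0.133) and in a fit of all libraries (0.0573).

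After IFNG, 3 members were lower in KO than in WT by this test, with log2 fold changes of -0.58 ± 0.14 for Slfn8 (adjusted p = 0.00829), -0.40 ± 0.12 for Slfn9 (0.0189) and -0.40 ± 0.13 for Slfn4 (0.0338), where 23.9% of 13637 genes were called and 13% were called lower. Slfn2 was at 0.28 ± 0.10 with adjusted p = 0.0503, just short of the call, which DESeq2 made (adjusted p = 0.0439). In each of these the KO and WT libraries overlapped. Without WT1 the log2 fold changes were -0.78 for Slfn8 (adjusted p = 1.79e-06), -0.57 for Slfn9 (3.01e-07) and -0.51 for Slfn4 (0.00278). The calls depended on other single clones: Slfn8 was not called without WT2, WT3 or KO1 (adjusted p 0.0508, 0.052 and 0.185), Slfn9 without WT2, WT3, KO1 or KO2 (0.0762 to 0.19) and Slfn4 without WT2 or KO2 (0.146 and 0.341). None was called with counts summed per clone (0.448, 0.516 and 0.525). Slfn4 was also lost without 1 library, which was a or c of WT2, c of WT3, b of KO1 or any of KO2 (0.0504 to 0.0755).

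**Figure D5:**
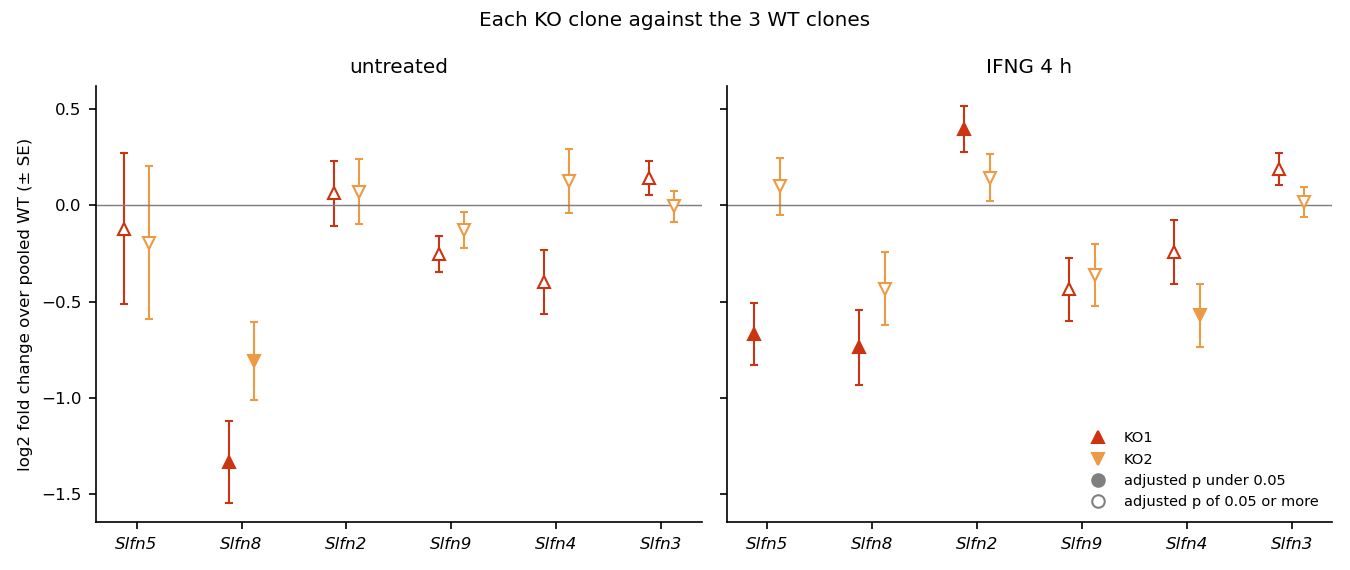
log2 fold change of KO1 (red, upward triangles) and KO2 (orange, downward triangles) over the 3 pooled WT clones (y axis, ± SE) for the 6 members (x axis), untreated at left and after IFNG at right, filled where the adjusted p is under 0.05. Slfn8 is filled for both clones untreated (-1.33 and -0.81), and after IFNG the filled points are Slfn5, Slfn8 and Slfn2 in KO1 and Slfn4 in KO2.

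Each KO clone was also set against the WT clones after IFNG. In KO1, Slfn5 (-0.67 ± 0.16, adjusted p = 0.00975) and Slfn8 (-0.74 ± 0.20, 0.0167) were lower and Slfn2 (0.39 ± 0.12, 0.0337) was higher, with 20.9% of genes called (12.1% lower, 8.76% higher). In KO2 the call was Slfn4 (-0.57 ± 0.16, 0.0405), with 10.0% of genes called (6.12% lower, 3.92% higher). The KO2 value of Slfn8 was -0.43 ± 0.19, of Slfn9 -0.36 ± 0.16, of Slfn5 0.10 ± 0.15 and of Slfn2 0.14 ± 0.12; in KO1 Slfn9 was at -0.44 ± 0.16 and Slfn4 at -0.24 ± 0.17. Without WT1, Slfn8 (-0.93 in KO1 and -0.63 in KO2), Slfn9 (-0.60 and -0.52) and Slfn4 (-0.35 and -0.68) were called lower in both KO clones, with adjusted p of at most 0.047 in KO1 and 0.000967 in KO2. The difference between KO1 and KO2 was not tested. Slfn1, which passed the filter in these fits, was at -1.07 ± 0.58 in KO1 (adjusted p = 0.221) and -0.12 ± 0.47 in KO2 (0.919). With a KO1 library left out, Slfn8 and Slfn2 lost their call for each of the 3 (0.0583 to 0.0855 and 0.0811 to 0.127) and Slfn5 for library c (0.0608); Slfn8 also lost it without WT2 (0.071) or WT3 (0.0567). The KO2 call of Slfn4 was lost without WT2 (0.0579), without WT3 (0.0641), without any KO2 library (0.136 to 0.167) or without library a or c of WT2 or c of WT3 (0.0622 to 0.0652).

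Whether the IFNG response differed by genotype was tested in a model of all 30 libraries. The KO response of Slfn8 exceeded that of WT by 0.47 ± 0.08 on the log2 scale (adjusted p = 0.000474, edgeR), or 1.38-fold, and 1.02% of 14682 genes were called, 0.681% with a higher response. The 3.15 and 2.92 of KO1 and KO2 were above the 2.42 to 2.67 of the WT clones, and the untreated libraries behind this value are those in which Slfn8 was lower in KO. With counts summed per clone and treatment and the clone as a block, an alternative chosen after seeing the data in which clones and not libraries are the replicates, the difference was 0.46 with adjusted p = 0.219, no member was called, and 2 of all genes were. Without KO1 it was 0.37 (adjusted p = 0.12), and it was called without each other clone and without each single library. The difference was -0.20 ± 0.06 for Slfn9 (adjusted p = 0.155), 0.18 ± 0.07 for Slfn2 (0.271), -0.27 ± 0.17 for Slfn4 (0.691), -0.05 ± 0.29 for Slfn5 and 0.03 ± 0.07 for Slfn3, none of them called. Slfn9 was called without WT1 (adjusted p = 0.0016) or without IFNG library c of WT1 (0.0261), and Slfn2 without KO2 (0.0314). With no filter on low counts Slfn9 (0.0169), Slfn2 (0.0249) and Slfn4 (0.0128) were called.

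Genes that carry and brake the interferon signal were read from a list of 17. All were tested in all 5 clones, and 11 were called higher and 3 lower in each of them. Of all genes tested in all 5 clones, 9.47% were called higher in each. The share called lower in each was not computed, and in single clones it ran from 9.47% in WT1 to 17.5% in WT3. The list's median log2 fold change was 0.87 to 1.43 beside -0.0083 to 0.0019 over all genes. Named by mean level among those called, Irf8, a macrophage transcription factor, rose 4.70-fold to 5.85-fold and Irf1, which binds ISRE sites, 31.4-fold to 40.4-fold. Socs3, a feedback inhibitor of cytokine receptors, rose 23.3-fold to 83.4-fold.

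Interferon effectors and RNases that, like Schlafen proteins, act on RNA were read from a second list of 17. Of these 13 were called higher in all 5 clones, beside 9.47% of all genes tested in all 5. None fell in all 5, although 1 fell in WT2 and in WT3, and the median log2 fold change was 1.16 to 1.46. Oas3, an enzyme switched on by double-stranded RNA, rose 2.24-fold to 2.77-fold. Eif2ak2, the kinase that senses double-stranded RNA, rose 2.52-fold to 3.34-fold and Zc3hav1, which binds CpG-rich viral RNA, 1.45-fold to 1.64-fold. Between KO and WT, untreated, 8 of the 16 genes of this list that were tested were called, 7 of them lower. Of 17 signalling genes 8 were called, 7 of them lower. Of all genes 26.6% were called and 14.4% were called lower. These calls rest on the spread between libraries: with counts summed per clone, 1 of all genes tested was called.

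Of 60 other annotated genes within 500 kb of the cluster, 18 were tested in all 5 clones and 4 were called higher in all 5, beside 9.47% of all genes tested in all 5. They were Slfn10-ps, the predicted gene Gm11425 beside it (1.74-fold to 2.39-fold), the chemokine gene Ccl4 (1.35-fold to 1.77-fold) and Wfdc17 (1.6-fold to 2.25-fold), and none was called lower in all 5. Between KO and WT untreated, 5 of 19 neighbours tested were called (4 higher, 1 lower), beside 26.6% of all genes (12.2% higher, 14.4% lower).

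Over the 10 means of clone and treatment on the log2(CPM + 0.5) scale, the genes whose pattern was most like that of each member were sought among the 12345 genes that averaged 1 CPM or more. The 10 means share 2 treatments, so r also reads the IFNG change that responsive genes have in common. Slfn5 averaged 1 CPM or more through its IFNG libraries. Its untreated means of 0.248 to 0.518 CPM are near the added 0.5, which dampens their differences. The closest were 9030619P08Rik, Ifi47 and Olfr56 for Slfn5 (Pearson r 0.994 to 0.998), Nrip1, Irf9 and Ifi207 for Slfn8 (0.991 to 0.992) and Gm17084, Arf4 and Tlr3 for Slfn9 (0.994 to 0.995). For Slfn2 they were Gm27995, Mb21d2 and Eif1a (0.992 to 0.997), for Slfn4 Phf11c, Setdb2 and Vrk3 (0.970 to 0.974) and for Slfn3 Med12, Gtf2b and C1s1 (0.981 to 0.987). No member was among the first 3 of another; Slfn9 was 33rd in order for Slfn8 (r = 0.98) and 10th for Slfn4 (0.955).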

How the data were processed

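PolyA RNA libraries of J774A.1 clones (3 libraries for each of 5 clones and 2 treatments, 30 in all) were sequenced by the authors as stranded read pairs. Per the paper's methods and the file header, reads were aligned with HISAT2 2.1.0 to mm10, unique fragments were kept, technical replicates were merged with SAMtools 1.10, and featureCounts 1.6.2 summed strand-specific fragments over exons. The deposited file holds these raw counts per gene for all libraries, with no normalization, and fragments over several genes count for each. Its header names GENCODE vM18 as the annotation, whereas the methods name RefSeq. Further deposited tables hold the authors' DESeq2 1.26.0 comparisons and were not used here. Columns were matched to clone and treatment by name; the columns named wtc1 and wtc3 were taken as WT2 and WT3.

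The counts were tested with edgeR 4.0.16 in R 4.3.3 (filterByExpr, TMM scaling, quasi-likelihood test), with Benjamini-Hochberg adjustment over all genes of a fit and a threshold of 0.05. Each clone's IFNG response used its own 6 libraries, KO against WT the libraries of 1 treatment, and the response differences all 30. SE is the log2 fold change divided by the root of F. Levels are CPM after TMM over all libraries, and per kb they are divided by the exon length in the file. Alternatives were DESeq2 1.42.0, RLE scaling, no filter, a single fit of all libraries, counts summed per clone (for the response difference with the clone as a block, chosen after seeing the data), and clones or libraries left out. Genes were named as the 7 members, the related Slfn5os, Slfn10-ps, Slfn14 and Slfnl1, neighbours called in all 5 clones, the 4 most abundant called genes of each list (1 of each is not reported here), the 3 most alike genes of each member, and Dicer1. Members, lists and tests were chosen with earlier results of these data known. Simulated counts with known changes were used to check the fits. Beyond those changes they held no differences between clones, so they cannot show calls that such differences bring. Library pairs within a group differed by more than sampling noise (chi-square per degree of freedom 1.95 to 19.5). Each was therefore kept as a library of its own, which does not show that the cultures were separate. Gene models and transcripts came from GENCODE vM21, promoters from RefSeq (GRCm38.p6). Depth was 15566122 to 37992642 counts per library, and intervals cover counting error only.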

Additional observations from a re-analysis of the deposited data

Results flagged for a closer look

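The IFNG response of Slfn8 differed between KO and WT clones by the interaction test (adjusted p = 0.000474, edgeR), with 1.02% of all genes called; the call was lost with counts summed per clone (0.219) and without KO1 (0.12). It also differed among the 5 clones, as did 3 other members: adjusted p was 0.000194 for Slfn8, 0.00699 for Slfn2, 0.0194 for Slfn9 and 0.021 for Slfn4, with 3.68% of all genes called. The Slfn2 call was lost without WT2 (0.316) or KO1 (0.231), that of Slfn9 without WT3 (0.38) and that of Slfn4 without WT2 (0.111) or KO2 (0.581). Log2 fold changes ran from 2.42 in WT2 to 3.15 in KO1 for Slfn8, from 1.96 in WT2 to 2.44 in KO1 for Slfn2, from 1.04 in KO2 to 1.40 in WT3 for Slfn9 and from 0.45 in KO2 to 1.42 in WT2 for Slfn4. What sets these clones apart was not tested, and with 1 line per clone the clone and any handling particular to it cannot be told apart.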

How the results depend on the processing

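In the IFNG response 6 members were called in each clone, Slfn5 among them through its IFNG libraries, and 6 or 7 under each alternative run. The other was Slfn1, also present through its IFNG libraries but for 1 untreated count in WT1. Untreated, KO against WT gave 1 called member, 2 without WT1, 0 with counts summed per clone and 3 in a single fit of all libraries. After IFNG it gave 3 (Slfn8, Slfn9 and Slfn4, all lower), 0 summed per clone and 5 in the single fit. Without WT2 it gave 1, which was Slfn2, higher (0.36, adjusted p = 0.0313, edgeR), and without WT3 or KO1 it gave 1, which was Slfn4, lower. Without KO2 it gave 3 again, but these were Slfn5 and Slfn8, lower, and Slfn2, higher. The counts in this section join higher and lower calls, and the members behind them can change. KO1 against WT gave 1 untreated, 4 without WT1 and 4 in the single fit, and after IFNG 3, 6 without WT1 and 5 in the single fit. KO2 against WT gave 1 untreated, 2 without WT1, 0 without WT2 or WT3 and 2 in the single fit. After IFNG it gave 1, 0 with no filter on low counts, 3 without WT1, 0 without WT2 or WT3 and 4 in the single fit. The response difference between KO and WT gave 1, 4 with no filter, 2 without WT1, 0 without KO1, 2 without KO2 and 0 with counts summed per clone and treatment and the clone as a block; that among the clones gave 4, and 2 without WT2.

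With 1 library left out (leave-one-out), the count was 6 to 6 in WT1, WT2 and KO1 and 6 to 7 in WT3 and KO2. For KO against WT it was 1 to 2 untreated and 2 to 4 after IFNG, for KO1 1 to 2 and 0 to 4, for KO2 0 to 1 and 0 to 1. It was 1 to 2 for the response difference by genotype, 3 to 4 among the 5 clones and 3 to 5 among the WT clones. Of 1689 values of single members under all alternatives, 1577 kept their side of the threshold and no called value changed sign. Values that were not called could change sign. Slfn2 in KO against WT untreated, for instance, went from 0.07 to -0.10 on the log2 scale without WT1. The tests among clones have no direction.

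Over all genes, the 3689 called between KO and WT untreated became 6472 without WT1, 1674 without KO1, 1 summed per clone and 7143 in the single fit, and the 3258 after IFNG became 5992, 1411, 1 and 7194. Without WT1, KO1 went from 3658 to 7053 untreated and from 2934 to 6291 after IFNG, and KO2 from 1674 to 5625 and from 1411 to 4994 (851 without WT2). In the single fit these were 7132, 6912, 4885 and 5358. The 150 of the response difference became 384 with no filter, 570 without WT1, 35 without WT2, 73 without WT3, 21 without KO1 and 2 with counts summed per clone, and the 547 among clones 919 with no filter and 319 without WT3. The cause of these shifts was not tested, except that a single fit takes the spread from libraries of 1 clone and so leaves out the spread between clones.

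No paired analysis was possible because the columns of the count table carry no replicate number, which holds for single libraries; the fits of the response difference pair the treatments by clone. Slfn1 and untreated Slfn5, with at most 19 counts in a library, limit what depth can show. Labels name more than 1 RNA input amount and kind of adapter without tying them to libraries, so no such batch was examined.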
